A study of Mus musculus with 63 samples.

Results

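Macs sorted from kidneys after 7 days of unilateral ureteral obstruction (UUO-7) were compared with Macs sorted after the same 7 days of obstruction and a further 14 days in which it had been reversed (R-UUO). The members are the 8 libraries whose sample names carry the F4/80 sort together with either condition, 4 for UUO-7 and 4 for R-UUO, of 63 libraries in all. Every miRNA locus was read in them. Of the 2110 loci counted, 457 held enough counts to be tested in Macs, and 867 held no count in any of the 8 libraries.

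Small RNA was sequenced (sRNA-Seq) from endothelial cells (ECs), Macs, proximal tubule (PT) cells and PDGFR-β+ mesenchymal cells of 16 mice, with sham operation, UUO-2 (2 days of obstruction), UUO-7 and R-UUO as the conditions. All mice were wild type male C57BL/6, 8 to 12 weeks old at surgery, and the age of each mouse at cull was not analysed here. Macs were taken as CD45+ F4/80hi cells, a gate for macrophages that stain strongly for F4/80. Each library comes from the sorted cells of 1 mouse, and UUO-7 and R-UUO mice were different animals. R-UUO mice were culled 14 days later in their course than UUO-7 mice. They alone had a further operation, in which, the paper reports, the ureter was reimplanted into the bladder. No condition kept the obstruction for that longer time, so reversal, elapsed time and the further operation cannot be told apart.

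Macrophages enter and expand in the obstructed kidney, where they take part in inflammation and in scarring, and after the obstruction is relieved they take part in clearing debris and scar. A miRNA is a short RNA cut from a hairpin precursor. It lowers the translation and stability of mRNAs that pair with its seed, bases 2 to 8 from its 5′ end, so miRNAs that share a seed are expected to share many targets. Either arm of a hairpin (5p or 3p) can give a mature miRNA, and hairpins that lie close together are often made from 1 transcript.

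The sequences of the miRNAs on which the comparison turned are given here by seed, because members of a seed family moved together in some families and apart in others. They are RefSeq mature sequences, 5′ to 3′, placed on GRCm38.p6, and the seed is in capitals. The seed AUUGCAC was shared by 2 miRNAs that were lower in R-UUO Macs and 1 that was higher. miR-92a-3p is cut from an exon of the Mir17hg transcript at chr14:115044476-115044496 on the plus strand and from a second locus at chrX:52741854-52741874 on the minus strand, miR-25-3p lies at chr5:138165332-138165353 in Mcm7 on the minus strand, and miR-32-5p at chr4:56895272-56895293 in an intron of Tmem245 on the minus strand:
miR-92a-3p: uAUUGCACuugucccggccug
miR-25-3p: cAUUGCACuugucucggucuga
miR-32-5p: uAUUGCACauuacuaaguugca

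The seed AGUGCAA was likewise divided. miR-130b-3p (chr16:17124071-17124092, minus strand, an intron of 2610318N02Rik) was lower in R-UUO Macs and miR-130a-3p (chr2:84741116-84741137, minus strand, no annotated host gene) was higher. From miR-130a-3p to miR-130b-3p the sequence changes by U11A and A13G, counted from the 5′ end, both outside the seed:
miR-130b-3p: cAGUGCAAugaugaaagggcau
miR-130a-3p: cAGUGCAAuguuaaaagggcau

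The miR-29 family, known for its targets among collagen and other extracellular matrix mRNAs, shares the seed AGCACCA. miR-29a-3p lies at chr6:31062673-31062694 on the minus strand and miR-29c-3p at chr1:195037600-195037621 on the plus strand, in an exon of A330023F24Rik. From miR-29a-3p to miR-29c-3p the change is C10U. miR-29b-3p is made from a locus beside each of them, at chr6:31063025-31063047 and at chr1:195037091-195037113:
miR-29a-3p: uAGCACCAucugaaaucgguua
miR-29b-3p: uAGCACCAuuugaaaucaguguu
miR-29c-3p: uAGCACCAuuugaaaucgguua

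Members of the miR-10, miR-99/100, miR-125, miR-15/16 and miR-199 families that were higher in R-UUO Macs are shown next. miR-10a-5p (chr11:96317186-96317208, plus strand) and miR-10b-5p (chr2:74726074-74726096, plus strand, an intron of Hoxd3 and Hoxd4) differ by U12A alone. miR-99b-5p (chr17:17830194-17830215) and miR-125a-5p (chr17:17830817-17830840) lie in Spaca6 on the plus strand, and miR-100-5p (chr9:41531437-41531458) and the miR-125b-5p locus at chr9:41581940-41581961 lie in the same long noncoding host, 3110039I08Rik. miR-195a-5p (chr11:70235062-70235082) and miR-497a-5p (chr11:70234730-70234751) are neighbours. miR-199a-5p (chr1:162217844-162217866) and miR-199a-3p (chr1:162217883-162217904) are the arms of a hairpin in the Dnm3os transcript:
miR-10a-5p: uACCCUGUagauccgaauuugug
miR-10b-5p: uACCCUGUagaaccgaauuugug
miR-99b-5p: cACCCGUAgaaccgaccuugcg
miR-100-5p: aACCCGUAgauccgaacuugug
miR-125a-5p: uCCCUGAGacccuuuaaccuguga
miR-125b-5p: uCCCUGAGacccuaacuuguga
miR-195a-5p: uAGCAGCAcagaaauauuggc
miR-497a-5p: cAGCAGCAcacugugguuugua
miR-199a-5p: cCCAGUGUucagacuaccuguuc
miR-199a-3p: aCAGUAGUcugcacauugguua

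miR-101a-3p, whose best known target is the histone methyltransferase Ezh2, and the arms of miR-210, a miRNA induced by hypoxia-inducible factor, share no seed with another called miRNA. They lie at chr4:101346957-101346977, in E130102H24Rik, and at chr7:141221407-141221428 and chr7:141221445-141221466, all on the minus strand:
miR-101a-3p: uACAGUACugugauaacugaa
miR-210-3p: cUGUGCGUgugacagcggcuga
miR-210-5p: aGCCACUGcccaccgcacacug

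The libraries held 1798374 to 3076036 counts in UUO-7 Macs and 1106651 to 6912556 in R-UUO Macs. A count of 3, taken as the least that a library can show, was worth 0.493 to 2.85 TMM-scaled CPM, and floors of this kind cover counting error only. CPM levels of different loci are set side by side here without division by length, since mature miRNAs are all of nearly the same length. R-UUO replicate 5 had the smallest depth, and on the first principal component, which held 34.8% of the variance of the 8 libraries and separated the groups, it lay at -2.76, against -9.35 to -7.55 for the other R-UUO libraries and 3.65 to 9.94 for UUO-7. The blood-cell origin of the libraries was plain in miR-142a-5p, a miRNA of blood-forming cells. It was at 28995 to 33801 unscaled CPM (relative to the library total alone) in UUO-7 Macs and at 22233 to 35728 in R-UUO Macs. In any library of ECs, PT cells or PDGFR-β+ cells of the same conditions it was at most at 552. This miRNA does not tell Macs from other CD45+ cells, and no other CD45+ population was sequenced.

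Reversal was accompanied by higher levels of 58 loci (12.7% of those tested) and lower levels of 33 (7.22%) in Macs, 91 in all (19.9%), at an adjusted p under 0.05 and a fold of at least 1.5 by edgeR's quasi-likelihood test. The other 366 loci were not called, 19 of them past the adjusted p but below the fold. The 4 libraries of one group lay wholly above the 4 of the other at 106 loci (23.2%), among them 40 of the loci called higher and 26 of those called lower. The median log2 fold change over all tested loci was 0.04. This split depended on the scaling: with library size only, 39 loci were higher and 74 lower, so that 34.5% of the calls were higher in place of 63.7%, and the median of all loci moved by -0.25 to -0.20. All 33 loci called lower and 39 of the 58 called higher were kept there. Without R-UUO replicate 5, the library nearest to UUO-7, 74 loci were higher and 53 lower. The spread between mice of a group corresponded to a biological coefficient of variation of 0.271.

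**Figure D1:**
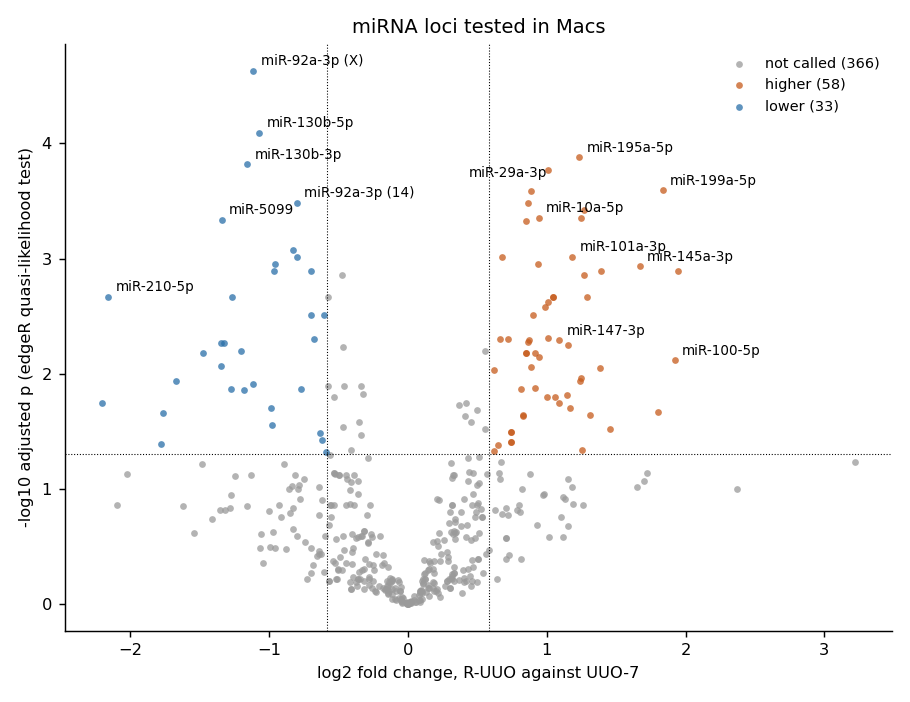
Log2 fold change of R-UUO against UUO-7 Macs (x axis) and -log10 of the adjusted p of edgeR's quasi-likelihood test (y axis) for the 457 tested miRNA loci, with loci called higher in orange, called lower in blue and others in grey. The 58 higher loci reach 1.95 (miR-29a-5p) and the 33 lower loci -2.20 (miR-19a-5p), and the smallest adjusted p belongs to the lower locus of miR-92a-3p on chromosome X.

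The miR-29 family rose with reversal in Macs, with 5 of 6 tested loci called higher (12.7% of all 457 tested loci were), none lower and a median log2 fold change of 1.00 (0.04 over all tested loci). Of these 5, 2 are loci of the same mature miR-29b-3p. miR-29a-3p, the most abundant member, was at 1603, 1120, 1472 and 1391 CPM in UUO-7 Macs (replicates 2, 3, 4 and 5, the order used throughout) and at 3085, 3310, 2818 and 2016 CPM in R-UUO Macs (replicates 1, 2, 4 and 5). Every R-UUO library lay above every UUO-7 library, a 2.01-fold rise (log2 1.01 ± 0.14 SE, adjusted p = 0.000169). In sham Macs miR-29a-3p stood higher still, at 4817 ± 317 CPM (SD, n = 4), so R-UUO Macs, which share the sham libraries with the comparison of UUO-7 against sham, remained below them by 0.78 on the log2 scale (adjusted p = 0.000341), where UUO-7 Macs were below by 1.79 (adjusted p = 6.79e-08). miR-29c-3p was at 88.2, 69, 81.1 and 89 CPM at UUO-7 and at 199, 190, 118 and 99.7 CPM in R-UUO, again without overlap (log2 0.90 ± 0.20, adjusted p = 0.00306), and replicate 5 was the R-UUO library nearest to the UUO-7 range.

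Of the other miR-29 loci 3 were called and 1 was not. The miR-29b-3p locus on chromosome 6 rose 2.01-fold (log2 1.01 ± 0.21, adjusted p = 0.00239) and that on chromosome 1 rose 1.99-fold (log2 0.99 ± 0.21, adjusted p = 0.00261). Both give the same mature sequence, so how reads were divided between them is uncertain. miR-29a-5p, the less abundant arm of the miR-29a hairpin, was at 1.64, 4.01, 0.983 and 2.21 CPM at UUO-7 and at 7.91, 8.05, 10.8 and 10.4 CPM in R-UUO (log2 1.95 ± 0.37, adjusted p = 0.00128). These levels are few counts in each library, and after all libraries were thinned to the depth of the smallest its adjusted p was 0.108. miR-29c-5p was not called (log2 0.21).

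miR-101a-3p behaved in the same manner. Its levels were 986, 680, 983 and 1020 CPM in UUO-7 Macs and 2407, 2931, 1841 and 1134 CPM in R-UUO Macs, a 2.27-fold rise without overlap (log2 1.18 ± 0.21, adjusted p = 0.000962). The R-UUO libraries were spread widely, with replicate 5 just above the UUO-7 range and replicate 2 the highest. Sham Macs held 5250 ± 600 CPM (SD, n = 4). miR-101b-3p, of the same family, was at 145 to 215 CPM at UUO-7 and at 114 to 425 CPM in R-UUO and was not called (log2 0.66 ± 0.27, adjusted p = 0.0816).

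The largest single shift in counts was in the miR-10 pair, which sits in the Hox gene clusters. miR-10a-5p was at 108898, 69224, 99268 and 75985 CPM at UUO-7 and at 156674, 145740, 182898 and 193853 CPM in R-UUO, 1.92-fold higher (log2 0.94 ± 0.16, adjusted p = 0.000442). miR-10b-5p was at 41517, 24040, 33949 and 27460 CPM and at 53138, 59521, 76890 and 115715 CPM, 2.40-fold higher (log2 1.27 ± 0.25, adjusted p = 0.00139). Neither overlapped between groups, and replicate 5 was the highest R-UUO library for both. Unlike miR-29a-3p, the miR-10 pair was low in sham Macs (62146 ± 8011 CPM for miR-10a-5p and 21952 ± 5220 CPM for miR-10b-5p, SD, n = 4), and R-UUO Macs lay above sham by 1.45 (adjusted p = 1.62e-06) and 1.80 (adjusted p = 2.45e-05) on the log2 scale. Both are more abundant in the other sorted populations, at 212157 unscaled CPM in sham ECs for miR-10a-5p and 193961 in sham PDGFR-β+ cells for miR-10b-5p on average, against 60113 and 21174 in sham Macs.

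A second pair from Hox clusters, chosen after its values were seen, moved in the same direction. miR-196b-5p, from an exon of Hoxa9, was at 219, 107, 143 and 152 CPM at UUO-7 and at 258, 227, 317 and 371 CPM in R-UUO (log2 0.92 ± 0.22, adjusted p = 0.00663). miR-196a-5p from the Hoxc5 intron was at 201 to 370 CPM and at 326 to 673 CPM (log2 0.74 ± 0.25, adjusted p = 0.0393). The call for miR-196a-5p rested on single libraries, since its adjusted p was 0.118 without UUO-7 replicate 3, 0.0753 without UUO-7 replicate 5, 0.0762 without R-UUO replicate 4 and 0.065 without R-UUO replicate 5.

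**Figure D2:**
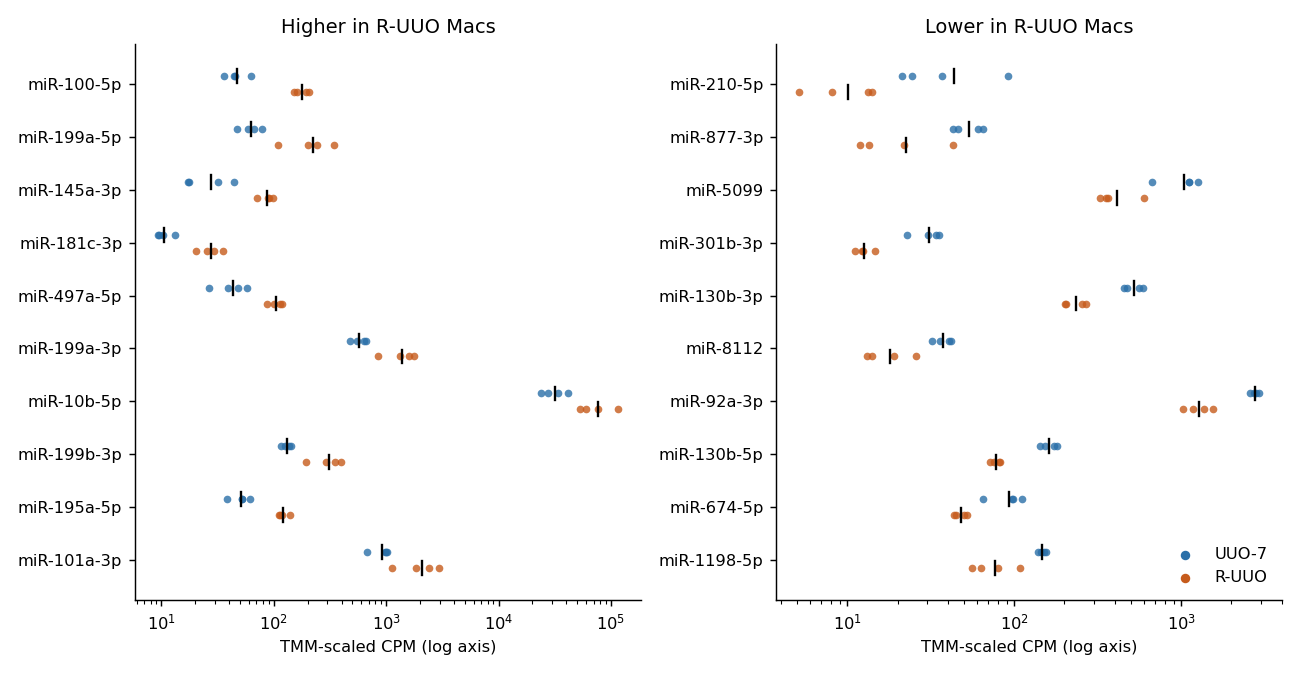
TMM-scaled CPM (log axis) in each of the 4 UUO-7 (blue) and 4 R-UUO (orange) Mac libraries for the 10 loci with the largest rise and the 10 with the largest fall among calls without overlap and above 20 CPM, with a black bar at each group mean. All 20 loci show separate groups, from miR-100-5p (36 to 62.9 against 152 to 204 CPM) to miR-10b-5p among the rises and from miR-210-5p to miR-92a-3p among the falls.

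The miR-99/100 and miR-125 families, which lie in clusters with let-7 genes and of which miR-99 and miR-100 are known to target Mtor, held 6 higher loci among 11 tested (12.7% over all tested loci) and no lower one, with a median log2 fold change of 0.74 (0.04 over all tested loci). miR-100-5p showed the largest rise of the loci above 20 CPM, from 44.4, 44.7, 62.9 and 36 CPM to 194, 204, 152 and 161 CPM (log2 1.92 ± 0.48, adjusted p = 0.00759). miR-99b-5p went from 2958, 2323, 2477 and 2468 CPM to 4019, 5206, 4103 and 5069 CPM (log2 0.85 ± 0.14, adjusted p = 0.000468). miR-125a-5p, its neighbour on chromosome 17, went from 6634, 3978, 5485 and 4286 CPM to 7347, 8846, 10168 and 12680 CPM (log2 0.94 ± 0.17, adjusted p = 0.00111). None of these overlapped between the groups, and their R-UUO values reached different points relative to sham. miR-99b-5p and miR-125a-5p had been lower at UUO-7 than in sham by 1.06 (adjusted p = 1.24e-05) and 1.15 (adjusted p = 3.79e-05) on the log2 scale and were within 0.21 of sham in R-UUO, while miR-100-5p differed little between sham and UUO-7 (log2 0.17, adjusted p = 0.792) and lay above sham in R-UUO (log2 2.09, adjusted p = 0.00229).

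Both miR-125b-5p loci were called, by log2 0.89 ± 0.13 on chromosome 16 (adjusted p = 0.000262) and 0.87 ± 0.14 on chromosome 9 (adjusted p = 0.000331), and since their mature sequences are identical they cannot be counted as independent. miR-99a-3p was called at log2 0.74 ± 0.24 (adjusted p = 0.032), but its adjusted p was 0.107 without UUO-7 replicate 3, 0.0572 without R-UUO replicate 1 and 0.0783 without R-UUO replicate 2. miR-99a-5p, which shares its seed with miR-99b-5p and miR-100-5p, was at 620 to 742 CPM at UUO-7 and at 633 to 1231 CPM in R-UUO and was not called (log2 0.44 ± 0.17, adjusted p = 0.0709).

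The miR-15/16 seed AGCAGCA, known for targets among cyclins, divided by gene. miR-195a-5p was at 61.4, 38.4, 52.6 and 51.8 CPM at UUO-7 and at 138, 112, 110 and 118 CPM in R-UUO (log2 1.23 ± 0.17, adjusted p = 0.000132). Its cluster partner miR-497a-5p was at 57.5, 26.6, 48.2 and 39.3 CPM and at 113, 99.6, 87.3 and 118 CPM (log2 1.29 ± 0.27, adjusted p = 0.00214). Both groups were separate for each of them. miR-322-5p rose less (log2 0.62 ± 0.16, adjusted p = 0.00926), and its change was below the 1.5-fold limit without R-UUO replicate 4 (log2 0.56) and UUO-7 replicate 3 (log2 0.56), while without UUO-7 replicate 5 its adjusted p was 0.0512. miR-15a-5p, miR-15b-5p and both loci of miR-16-5p were not called, and miR-15b-3p, the opposite arm of miR-15b, was lower (log2 -1.18 ± 0.33, adjusted p = 0.0137, with adjusted p of 0.0665 without R-UUO replicate 2 and 0.0701 without UUO-7 replicate 3). Of the 13 tested loci of the family 3 were higher and 1 lower, and their median was 0.04 under TMM scaling and -0.21 with library size only.

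**Figure D3:**
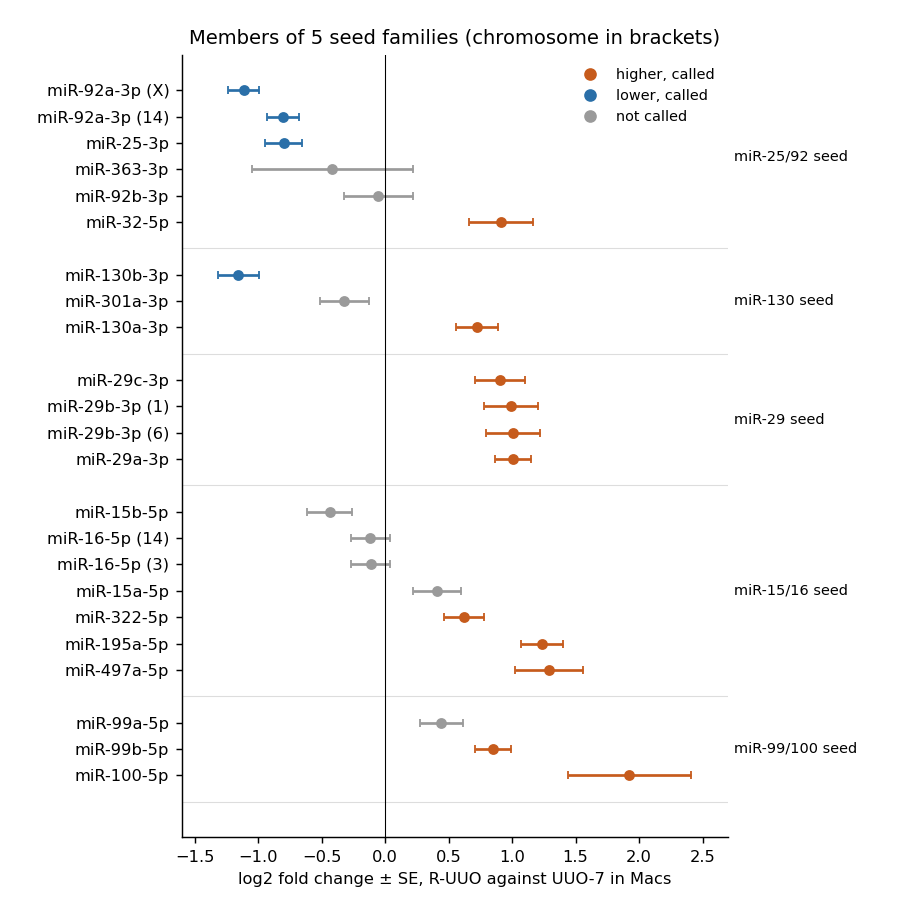
Log2 fold change ± SE of R-UUO against UUO-7 Macs (x axis) for the tested loci of 5 seed families whose mature sequence was matched in RefSeq (miR-301b-3p had no match and is not drawn), with orange for higher, blue for lower and grey for not called. All 4 loci of the miR-29 seed lie between 0.90 and 1.01, whereas the miR-25/92 seed runs from -1.11 (miR-92a-3p, chromosome X) to 0.91 (miR-32-5p) and the miR-130 seed from -1.16 (miR-130b-3p) to 0.72 (miR-130a-3p).

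Among the falls with reversal was abundant miR-92a-3p. Of the miR-17-92 cluster and its paralogs, which are induced by Myc and favour proliferation, 6 of 20 tested loci were lower (7.22% of all tested loci were), 1 was higher and the median log2 fold change was -0.43. Of these 6, 2 are loci of the same mature miR-92a-3p. The summed level of all its loci was 48310 to 59302 unscaled CPM in UUO-7 Macs and 23374 to 31596 in R-UUO Macs, and these ranges did not overlap. miR-92a-3p made up most of this. Its locus on chromosome 14 was at 37020, 38339, 45075 and 41238 CPM at UUO-7 and at 18894, 18595, 28407 and 26802 CPM in R-UUO (log2 -0.80 ± 0.12, adjusted p = 0.000328). Its locus on chromosome X, with the same mature sequence, was at 2568, 2824, 2944 and 2729 CPM and at 1176, 1028, 1362 and 1553 CPM (log2 -1.11 ± 0.12, adjusted p = 2.34e-05), and the part that shared reads play in the pair is uncertain.

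miR-25-3p, a paralog with the same seed, was at 3869, 5113, 4836 and 5230 CPM at UUO-7 and at 2975, 3178, 2560 and 2229 CPM in R-UUO (log2 -0.80 ± 0.15, adjusted p = 0.000962). For these 3 loci UUO-7 did not pass the test against sham (log2 -0.16 to 0.16) and R-UUO lay below sham, by log2 -0.64 for miR-25-3p (adjusted p = 0.00181) and -0.96 for miR-92a-3p on chromosome 14 (adjusted p = 1.03e-05). miR-18a-3p fell from between 56.5 and 68.7 CPM to between 31.5 and 37 CPM (log2 -0.83 ± 0.15, adjusted p = 0.000843), and miR-106b-3p, made with miR-25 from the Mcm7 gene, fell from between 226 and 320 CPM to between 150 and 191 CPM (log2 -0.70 ± 0.15, adjusted p = 0.00306). miR-19a-5p was called lower at 2.29 to 6.03 CPM against 0 to 1.48 CPM, a few counts in each library, and its adjusted p was 0.0569 without R-UUO replicate 1, 0.056 without R-UUO replicate 4 and 0.0604 without UUO-7 replicate 2.

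Apart from miR-92a-3p, miR-18a-3p and miR-19a-5p, the tested miRNAs cut from the Mir17hg transcript were not called lower. miR-17-5p was at 169 to 213 CPM at UUO-7 and at 118 to 210 CPM in R-UUO (log2 -0.17 ± 0.16, adjusted p = 0.441). miR-20a-5p was at 76.9 to 103 and 61.7 to 122 CPM (log2 0.08 ± 0.21, adjusted p = 0.768). miR-19b-3p on chromosome 14 was even called higher, at 285 to 455 against 293 to 734 CPM (log2 0.74 ± 0.24, adjusted p = 0.032). That call was lost with any of 6 libraries left out, UUO-7 replicates 3, 4 and 5 (adjusted p = 0.112, 0.0632 and 0.104) and R-UUO replicates 1, 2 and 4 (adjusted p = 0.0808, 0.0511 and 0.0879). Within the AUUGCAC seed, miR-32-5p stood against miR-92a-3p and miR-25-3p, at 11.5, 15.5, 18.7 and 23.2 CPM at UUO-7 and 37.4, 44.7, 27.1 and 18 CPM in R-UUO (log2 0.91 ± 0.25, adjusted p = 0.0132, and 0.0592 without R-UUO replicate 2), with replicate 5 inside the UUO-7 range. It was by far the rarer miRNA, and it was the only called member of the seed that was lower at UUO-7 than in sham (log2 -2.02, adjusted p = 6.64e-06).

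The miR-130b hairpin fell on both arms. miR-130b-3p was at 454, 476, 594 and 559 CPM at UUO-7 and at 256, 271, 204 and 200 CPM in R-UUO (log2 -1.16 ± 0.16, adjusted p = 0.000151). miR-130b-5p, the other arm, was at 142, 181, 173 and 153 CPM and at 75.5, 72, 81.7 and 80.7 CPM (log2 -1.07 ± 0.13, adjusted p = 8.06e-05). Neither overlapped. R-UUO and sham Macs held miR-130b-3p at nearly one level, 233 ± 35.9 and 229 ± 45.6 CPM (SD, n = 4 each). miR-301b-3p, the neighbour of miR-130b at chr16:17124420-17124442, fell from 34, 22.9, 30.5 and 35.3 CPM to 14.7, 12.3, 11.2 and 12.3 CPM (log2 -1.27 ± 0.26, adjusted p = 0.00214). Against this cluster stood miR-130a-3p with the same seed, which rose from 186, 158, 188 and 179 CPM to 285, 271, 292 and 326 CPM (log2 0.72 ± 0.17, adjusted p = 0.00497), though by less than 1.5-fold with library size only (log2 0.49) or with GC content corrected (log2 0.51), and miR-301a-3p, which was not called (log2 -0.32 ± 0.19, adjusted p = 0.231).

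miR-210, the hypoxia list of 2 loci, fell on both arms. miR-210-5p was at 21.4, 91.3, 24.6 and 37.1 CPM at UUO-7 and at 14, 8.05, 5.16 and 13.3 CPM in R-UUO (log2 -2.16 ± 0.45, adjusted p = 0.00214). UUO-7 replicate 3 stood above its group, yet the lowest UUO-7 library was still above every R-UUO library, and sham Macs were at 9.80 ± 3.11 CPM (SD, n = 4). miR-210-3p was at 26.3, 61.5, 42.3 and 57.4 CPM and at 27.3, 25.1, 9.89 and 18 CPM, with 1 R-UUO library inside the UUO-7 range (log2 -1.21 ± 0.29, adjusted p = 0.00636).

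Other falls above 20 CPM were of less studied miRNAs. miR-5099 went from 673, 1108, 1257 and 1114 CPM to 356, 327, 363 and 599 CPM (log2 -1.34 ± 0.22, adjusted p = 0.000458). miR-1198-5p fell from 138 to 156 CPM to 55.9 to 108 CPM (log2 -0.96 ± 0.18, adjusted p = 0.00111), miR-674-5p from 65.2 to 111 CPM to 43.5 to 52.5 CPM (log2 -0.97 ± 0.19, adjusted p = 0.00128), and miR-877-3p, from an Abcf1 intron, from 42.8 to 65.5 CPM to 11.9 to 42.7 CPM (log2 -1.34 ± 0.34, adjusted p = 0.00861). These 4 were also higher at UUO-7 than in sham, by log2 1.12, 1.19, 0.99 and 2.15 in the order given, and did not pass the test between R-UUO and sham (log2 -0.22, 0.24, 0.03 and 0.81). miR-8112 fell as well (log2 -1.12 ± 0.30, adjusted p = 0.0121).

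**Figure D4:**
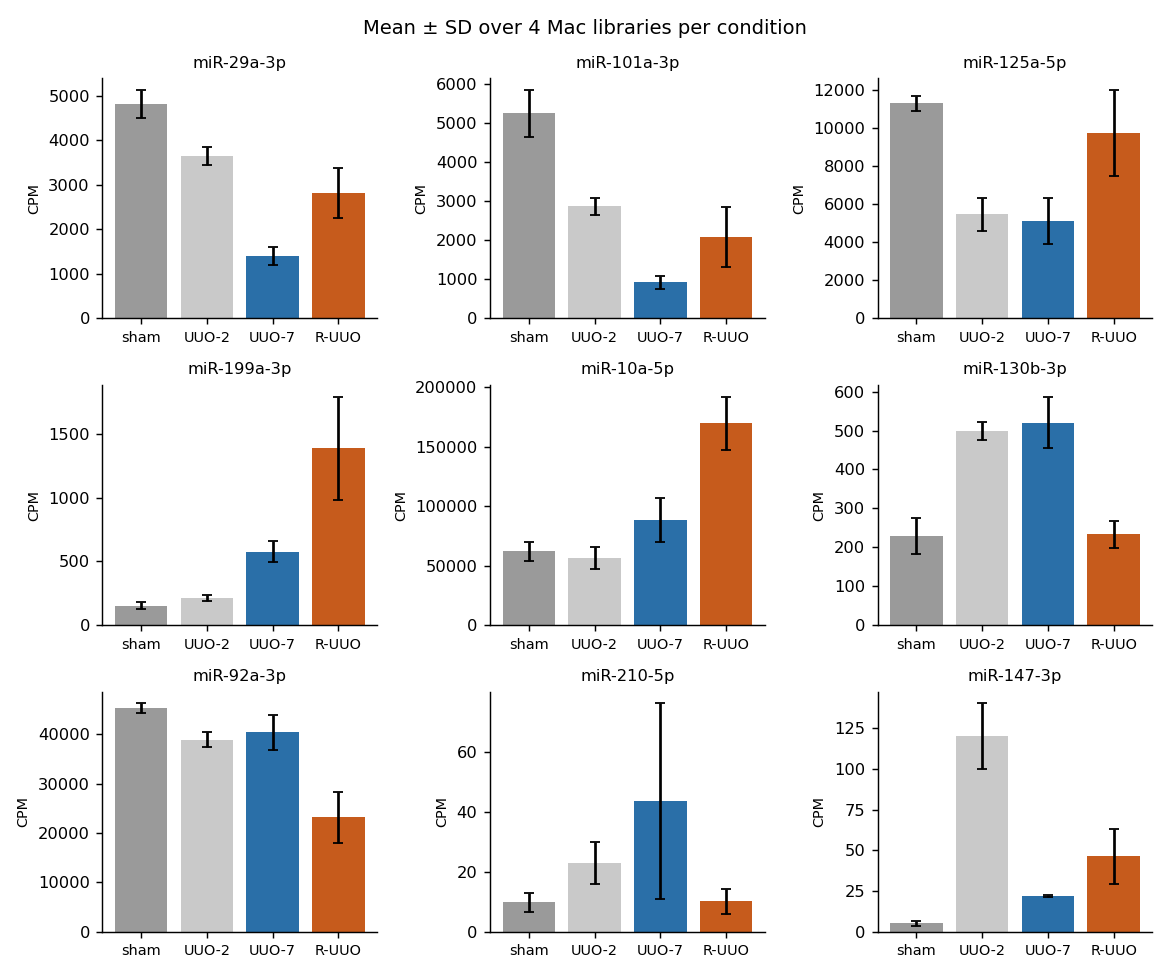
Mean CPM with SD over the 4 Mac libraries of each condition (bars from 0, in order of sham, UUO-2, UUO-7, R-UUO) for 9 miRNAs. miR-29a-3p, miR-101a-3p and miR-125a-5p are lowest at UUO-7 and partly or wholly regained in R-UUO, miR-130b-3p and miR-210-5p are raised at UUO-7 and back near sham in R-UUO, miR-92a-3p is lowest in R-UUO, and miR-199a-3p and miR-10a-5p are highest in R-UUO.

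Against sham Macs, UUO-7 Macs had 120 of the tested loci higher (26.3%) and 77 lower (16.8%), and R-UUO Macs had 98 higher (21.4%) and 48 lower (10.5%). These comparisons share their sham libraries with each other and their UUO-7 or R-UUO libraries with the comparison described above, so the values of a member are given side by side and no count of loci that reversed was drawn from them.

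miRNAs known for inflammation in macrophages were mostly not called. Of 17 tested loci of the inflammation list 1 was higher, none lower, and the median log2 fold change was 0.32. The exception was miR-147-3p, a miRNA induced by Toll-like receptor signals, at 21.4, 21.5, 23.1 and 21.7 CPM at UUO-7 and 62.9, 56.2, 24.9 and 40.8 CPM in R-UUO (log2 1.09 ± 0.25, adjusted p = 0.00512). It was rare in sham Macs (5.16 ± 1.43 CPM) and highest at UUO-2 (120 ± 20.2 CPM, SD, n = 4 each). miR-146a-5p, a brake on NF-κB signalling, was at 26734 to 41524 CPM at UUO-7 and at 30630 to 59494 CPM in R-UUO (log2 0.47 ± 0.18, adjusted p = 0.0722). miR-21a-5p, which is raised in many fibrotic tissues, was at 67275 to 77387 CPM and at 56681 to 133254 CPM (log2 0.43 ± 0.18, adjusted p = 0.0859). For both, replicate 5 was the lowest R-UUO library, and without it both were called higher, miR-146a-5p by log2 0.69 (adjusted p = 0.00377) and miR-21a-5p by log2 0.67 (adjusted p = 0.000305). miR-146a-5p was also called without UUO-7 replicate 2 (log2 0.64, adjusted p = 0.0386). miR-155-5p, induced in activated macrophages, was at 235 to 444 CPM and at 132 to 259 CPM, which did not pass the test (log2 -0.62 ± 0.29, adjusted p = 0.125). It was called lower with library size only (log2 -0.84), without a filter on low counts (log2 -0.70) and with GC content corrected (log2 -0.93).

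The leukocyte miRNAs gave 1 call in each direction, and both calls were unstable. miR-142a-3p was at 851, 480, 716 and 566 CPM at UUO-7 and 1601, 1412, 1059 and 559 CPM in R-UUO (log2 0.83 ± 0.25, adjusted p = 0.0228), and its adjusted p was 0.0988 without UUO-7 replicate 3, 0.0747 without UUO-7 replicate 5, 0.0662 without R-UUO replicate 1 and 0.065 without R-UUO replicate 2. Its far more abundant partner arm miR-142a-5p was at 28576 to 31124 and 23370 to 40571 CPM (log2 0.15 ± 0.13, adjusted p = 0.423). miR-223-5p was lower (log2 -0.59 ± 0.21, adjusted p = 0.048), which no fit with a single library left out kept except that without R-UUO replicate 4, with adjusted p from 0.0614 to 0.205 in the others. miR-223-3p, the main arm in myeloid cells, was not called (log2 -0.29 ± 0.16, adjusted p = 0.169). miR-511-3p and miR-511-5p, from an intron of the mannose receptor gene Mrc1 that marks alternatively activated macrophages, were not called, with a median of -0.22. With GC content corrected miR-511-3p was called lower (log2 -0.64).

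Among regulators of the cell cycle and stress response, miR-221-3p, which targets the cyclin kinase inhibitor Cdkn1b, fell from 891, 1042, 898 and 930 CPM to 746, 603, 595 and 527 CPM (log2 -0.61 ± 0.13, adjusted p = 0.00306). It lay close to the 1.5-fold limit and dropped below it without R-UUO replicate 2 (log2 -0.58), replicate 4 (log2 -0.56) or replicate 5 (log2 -0.49) and without UUO-7 replicate 3 (log2 -0.54) or replicate 5 (log2 -0.58). Neither tested locus of the p53-induced miR-34 family was called (median 0.50). In the miR-181 family 3 of 10 loci were higher (12.7% over all tested loci), with a median of 0.16 that became -0.07 with library size only. Both arms of miR-181c were among them: miR-181c-3p rose from 9.32, 9.45, 13.3 and 10.3 CPM to 29.1, 35.2, 20.2 and 25.6 CPM (log2 1.39 ± 0.27, adjusted p = 0.00129), and miR-181c-5p rose from between 275 and 350 CPM to between 426 and 670 CPM (log2 0.86 ± 0.20, adjusted p = 0.00535). The abundant miR-181a-5p locus on chromosome 2 was not called (log2 -0.01). In the miR-30 family 2 loci were higher and 1 lower of 12, shares close to those over all tested loci, with miR-30a-5p at 7515 to 9837 CPM against 11420 to 16295 CPM (log2 0.67 ± 0.12, adjusted p = 0.000962).

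The let-7 family, among the most abundant in Macs, had 13 tested loci of the main 5p arms and none called, with a median log2 fold change of -0.26. With library size only the median was -0.48 (-0.20 over all tested loci) and 1 locus was lower. The summed level was 169940 to 225093 unscaled CPM at UUO-7 and 138185 to 152440 in R-UUO, without overlap. With GC content corrected, let-7a-5p on chromosome 13 (log2 -0.64) and miR-98-5p (log2 -0.74) were called lower. The rare 3p arms of the same hairpins, looked at after their values were seen, were called higher for let-7c-2-3p, let-7a-1-3p, let-7f-2-3p, let-7e-3p and miR-98-3p. let-7c-2-3p was at 25.2, 16, 15.2 and 18.4 CPM at UUO-7 and 59.7, 41.6, 38.7 and 22.8 CPM in R-UUO (log2 1.15 ± 0.27, adjusted p = 0.00558). miR-98-3p was at 20.6 to 32.9 and 31.3 to 54.2 CPM (log2 0.94 ± 0.23, adjusted p = 0.00711). The calls of the other 3 were lost with at least 1 library left out: let-7a-1-3p without UUO-7 replicate 5 (adjusted p = 0.0636), let-7f-2-3p without R-UUO replicate 2 (0.0783) or UUO-7 replicate 5 (0.0636), and let-7e-3p without any of 6 libraries, with adjusted p up to 0.143 without UUO-7 replicate 3.

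Across the 116 hairpins with both arms tested and matched in RefSeq, the arms never passed the test in opposite directions. miR-145a, which had no RefSeq match and is left out of these counts, was called higher on both arms. Of the 116 hairpins, both arms were higher for 3 (miR-29a, miR-181c and miR-199a-2), both lower for 3 (miR-130b, miR-1306 and miR-210), 1 arm alone was called for 36 and none for 74. In 17 of those 36 the called arm was the less abundant. The miR-24-2 and miR-3074-2 hairpins, which carry the same counts on opposite strands, are both among the 36 and among the 17. Other pairs share the log2 fold change and mean level of at least 1 arm: miR-203 with miR-203b, miR-219a-1 with miR-219c and miR-374b with miR-374c. Both hairpins of each of these pairs are among the 74, so the hairpins counted are not all independent. By seed, 399 tested loci with a RefSeq sequence carried 310 seeds, and 12 seeds had at least 2 called miRNA names. Of these 10 held only higher calls beside loci that were not called in some, none held only lower calls, and 2 (AUUGCAC and AGUGCAA) held calls in both directions. The loci called higher had a median GC content of 40.9% in the mature sequence and those called lower 57.1%, against 47.8% over all 399, and the log2 fold change ran against GC content across loci (Pearson -0.379, Spearman -0.393, n = 399 loci measured in the same 8 libraries, so a description only). In each library, the deviation of each locus's log2 level from its mean over the 16 Mac libraries was correlated with GC content. That correlation was at least 0.118 in every UUO-7 library, -0.202 to -0.131 in R-UUO replicates 1, 2 and 4 and 0.134 in R-UUO replicate 5. With the GC trend removed from each library, 35 of 53 higher and 17 of 27 lower loci kept their call. miR-29a-3p, miR-101a-3p, miR-10a-5p, miR-100-5p, miR-199a-3p, miR-130b-3p, miR-25-3p and miR-210-5p kept theirs, while miR-210-3p (adjusted p = 0.0782), miR-106b-3p (0.276), miR-142a-3p (0.107), miR-98-3p (0.103), miR-8112 (0.201) and miR-32-5p (0.194) lost theirs, and miR-29c-3p (log2 0.57) and the chromosome 14 locus of miR-92a-3p (log2 -0.58) fell just under the 1.5-fold limit. The part of GC content in the result was not tested beyond this.

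Most tested miRNAs that mark PDGFR-β+ mesenchymal cells were higher in R-UUO Macs. Of 9 tested loci of that list 6 were higher (12.7% over all tested loci) and none lower, with a median log2 fold change of 1.25. miR-199a-5p was at 59.2, 67, 78.6 and 47.4 CPM at UUO-7 and at 345, 242, 200 and 109 CPM in R-UUO (log2 1.84 ± 0.27, adjusted p = 0.000256). miR-199a-3p was at 476, 630, 655 and 545 CPM and at 1776, 1598, 1336 and 843 CPM (log2 1.27 ± 0.20, adjusted p = 0.00038). miR-199b-3p, with the same sequence as miR-199a-3p, rose likewise (log2 1.25 ± 0.20, adjusted p = 0.000442). These were separate between groups, with replicate 5 the lowest R-UUO library each time, and in sham Macs they were lower still (20.2 ± 3.46 and 153 ± 28.6 CPM for miR-199a-5p and miR-199a-3p, SD, n = 4). miR-143-3p and miR-145a, which are best known from smooth muscle and pericytes, rose as well: miR-143-3p from between 4736 and 7723 CPM to between 8727 and 13340 CPM (log2 1.01 ± 0.23, adjusted p = 0.00488) and miR-145a-3p from between 17.3 and 44.2 CPM to between 70.1 and 97.9 CPM (log2 1.67 ± 0.31, adjusted p = 0.00117). The call for miR-145a-5p (log2 1.31 ± 0.40, adjusted p = 0.0229) was lost without UUO-7 replicate 3 (adjusted p = 0.0691).

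The summed level of the PDGFR-β+ list was 5995 to 8711 unscaled CPM in UUO-7 Macs and 9611 to 14150 in R-UUO Macs, against 132801 to 169743 and 85256 to 143110 in PDGFR-β+ cells themselves. Most of the sum in Macs was miR-143-3p, at a mean of 6301 unscaled CPM at UUO-7 and 10862 in R-UUO, so the sum describes mainly that miRNA. miR-214-3p, which is made from the same Dnm3os transcript as miR-199a and marks the same cells, did not rise with the rest, at 46.6, 48.4, 61.4 and 64.4 CPM and 69.1, 48.6, 54.2 and 51.3 CPM (log2 0.02 ± 0.22, adjusted p = 0.963). The rarer arm of its hairpin, miR-214-5p, had a log2 fold change of 1.11 at a mean of 11.3 CPM and was not called. None of the 12 loci on the list was at 0 throughout the 8 libraries. The bulk libraries cannot tell more cells of another type in the sort from more of these miRNAs per Mac, and the part of PDGFR-β+ cells in the result was not tested. Of the 58 loci called higher, 20 (34.5%) had their highest sham level in PDGFR-β+ cells and 24 (41.4%) in Macs, against 58 (12.7%) and 213 (46.6%) of all 457. Of the 33 called lower, 22 (66.7%) were highest in sham Macs, 10 in PT cells and 1 in the PDGFR-β+ population.

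Of the markers of the remaining cell types 2 loci were called, both epithelial. The EC markers miR-126a-3p and miR-126a-5p were not called (log2 0.97 and 0.71), and their sum was 1205 to 1728 unscaled CPM at UUO-7 and 1190 to 3927 in R-UUO, where replicate 5 was the highest. None of 3 tested PT cell markers was called (median 0.01, and -0.22 with library size only), with a sum of 2280 to 3836 and 1558 to 3699. Of 7 tested epithelial markers of the miR-200 family miR-141-3p (log2 0.87 ± 0.20, adjusted p = 0.00512) and miR-200a-3p (log2 0.89 ± 0.23, adjusted p = 0.00876) were higher, with a sum of 806 to 1065 and 712 to 1918 unscaled CPM, and miR-429-5p and miR-200c-5p had no count in the 8 libraries. miR-141-3p did not mark epithelium in sham, where its mean was 212 unscaled CPM in Macs and 121 in PT cells. At UUO-7 its mean was 126 unscaled CPM in Macs and 940 in PT cells. None of 5 tested erythroid markers was called (log2 -1.06 to -0.49, median -0.53), but with library size only 4 of them were called lower (median -0.75). Their sum was 3479 to 4402 unscaled CPM at UUO-7 and 1732 to 3669 in R-UUO, and the defining miR-451a was at most at 3.90 unscaled CPM in the 8 libraries. On this list miR-486a-5p carried the same counts as miR-486b-3p, and miR-486a-3p the same as miR-486b-5p. These loci are therefore not independent, and the sum holds the same counts more than once. The 4 lymphocyte markers were not called either (log2 -1.42 to -0.12, median -0.49), although their sum, 4355 to 5215 at UUO-7 and 2363 to 4233 in R-UUO, did not overlap. miR-150-5p, a miRNA of mature lymphocytes, was not confined to them here. Its mean was higher in ECs (1578 unscaled CPM at UUO-7 and 1861 in R-UUO) than in Macs (1091 and 547). In Macs miR-150-5p was at 773 to 1302 and 233 to 1046 CPM (log2 -0.79 ± 0.33, adjusted p = 0.0922). It was called lower without R-UUO replicate 5 (log2 -1.15, adjusted p = 0.00781), without UUO-7 replicate 5 (log2 -0.95, adjusted p = 0.047), with DESeq2 (log2 -0.81, adjusted p = 0.0478) and in 3 further settings. R-UUO replicate 5 was the highest R-UUO library for the EC, PT cell, epithelial, PDGFR-β+, lymphocyte and erythroid sums and the lowest for the leukocyte sum, at 24013 unscaled CPM against 32452 to 37238 in UUO-7. The part of such cells in the calls was not tested.

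**Figure D5:**
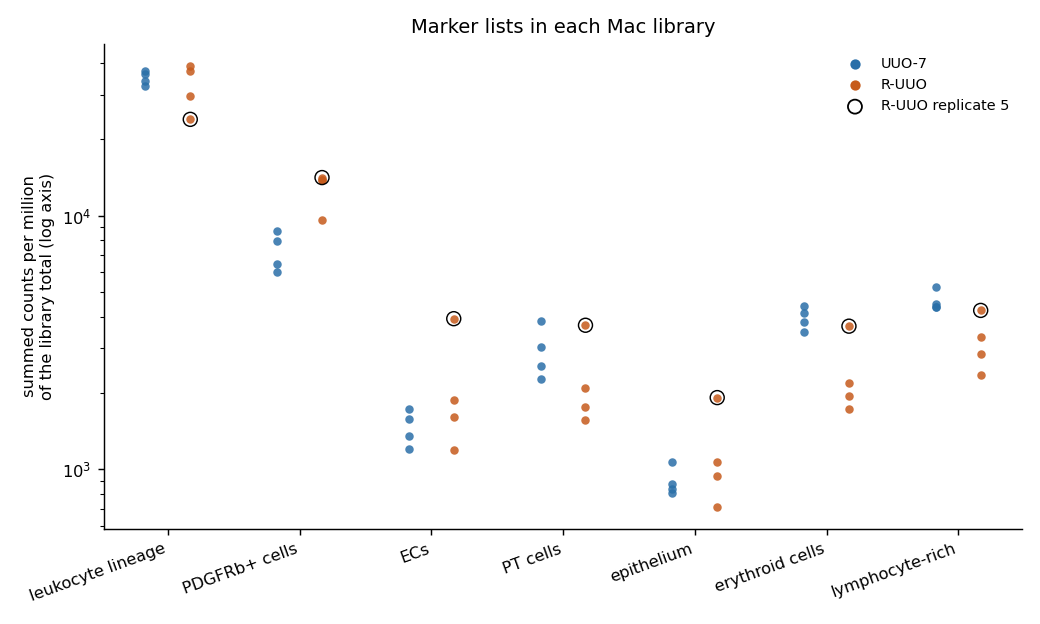
Summed unscaled CPM (log axis) of 7 marker lists in each UUO-7 (blue) and R-UUO (orange) Mac library, with R-UUO replicate 5 circled. The PDGFR-β+ list does not overlap between groups (5995 to 8711 against 9611 to 14150), nor does the lymphocyte list (4355 to 5215 against 2363 to 4233), and replicate 5 is the highest R-UUO library for every list but the leukocyte one.

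The change from UUO-7 to R-UUO was also compared between cell types, as the log2 change in Macs minus the mean of the changes in ECs, PT cells and PDGFR-β+ cells, over all 63 libraries. Of 671 loci 6 (0.894%) rose more in Macs at an adjusted p under 0.05 by edgeR's quasi-likelihood test and none (0%) rose less, with 94 at an unadjusted p under 0.05. With each mouse as a block, as its 4 cell types came from 1 animal, 12 loci were called, these 6 included, and with library size only 4 were called, 3 of them among the 6. miR-130a-3p had the smallest adjusted p: it changed by log2 0.80 in Macs against -0.09, -0.29 and -0.04 in ECs, PT cells and PDGFR-β+ cells, a difference of 0.94 ± 0.15 (adjusted p = 6.43e-05). miR-29a-3p changed by 1.09 in Macs against 0.39, 0.08 and 0.00 (difference 0.94 ± 0.20, adjusted p = 0.00465).

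The other 4 loci were those of miR-199a-5p (difference 1.52 ± 0.34, adjusted p = 0.0066), miR-199a-3p (1.39 ± 0.28, adjusted p = 0.00247) and miR-199b-3p (1.28 ± 0.30, adjusted p = 0.00987), and the miR-218-5p locus in Slit3 on chromosome 11 (2.30 ± 0.53, adjusted p = 0.00887). In PDGFR-β+ cells, where miR-199a-3p is most abundant, its mean level was 15369 unscaled CPM at UUO-7 and 14652 in R-UUO, and in Macs 613 and 1242. miR-218-5p rested on few counts, at 0.491 to 2.58 CPM in UUO-7 and 2.88 to 9.20 CPM in R-UUO Macs. The differences for miR-101a-3p (0.87 ± 0.25, adjusted p = 0.0589), miR-130b-3p (-1.08 ± 0.33, adjusted p = 0.0644) and miR-10a-5p (0.55 ± 0.32, adjusted p = 0.443) did not pass the test.

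Loci outside these groups and chosen after their values were seen included miR-182-5p, which was at 875, 589, 622 and 732 CPM at UUO-7 and at 1582, 1113, 958 and 2231 CPM in R-UUO (log2 1.06 ± 0.30, adjusted p = 0.0158, and 0.0556 without UUO-7 replicate 3). miR-204-5p was called higher (log2 1.17 ± 0.35, adjusted p = 0.0199) through R-UUO replicate 5 at 420 CPM, with the other R-UUO libraries at 91.7 to 148 CPM and UUO-7 at 74.1 to 104 CPM, and it was not called without that library (log2 0.60, adjusted p = 0.0553) or without UUO-7 replicate 3 (adjusted p = 0.0556). miR-24-2-5p (log2 1.04 ± 0.22, adjusted p = 0.00214) carried the same counts as miR-3074-2-3p on the opposite strand, so which of them was measured is uncertain, and the other 9 tested loci of the miR-23/27/24 clusters were not called. Of the miRNAs in the Clcn5 intron 1 of 8 was higher, close to the share over all tested loci, miR-362-3p (log2 1.24 ± 0.33, adjusted p = 0.0115, and 0.0511 without R-UUO replicate 2). None of 5 miR-26 loci (median 0.41) and none of 7 loci in introns of metabolic genes such as miR-33 and miR-378 (median 0.18, and -0.06 with library size only) was called. The most abundant loci that were not called were miR-191-5p (log2 -0.35 ± 0.11, adjusted p = 0.026, under the 1.5-fold limit), miR-146a-5p, miR-22-3p (log2 0.33 ± 0.13, adjusted p = 0.0755), miR-21a-5p, let-7f-5p on chromosome X (log2 -0.05) and miR-181a-5p.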

How the data were processed

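The deposited table holds raw counts for each genomic position of a mature miRNA and was used as it stood. The authors trimmed the reads with Trim Galore 0.4.1 and cutadapt 1.1, aligned them with Bowtie through ShortStack to GRCm38 and miRBase 22. The counts in this table are neither normalized nor pooled, and the scaling the authors applied for their own tests is not part of it. The strand counted and the placing of reads that map to several loci are not given in the sources used here. Samples were grouped from their labels, and the members and miRNA lists were chosen with earlier results of these data known. One PDGFR-β+ UUO-7 library that the authors left out was not analysed here.

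Counts of the 16 Mac libraries were filtered with filterByExpr, scaled by TMM and fitted with edgeR 4.0.16 (R 4.3.3) by glmQLFit and glmQLFTest over the 4 conditions, which share 1 estimate of spread. Calls required a Benjamini-Hochberg adjusted p under 0.05 over all 457 loci and a fold of 1.5. The SE is the log2 fold change divided by the square root of F. P-values are two-sided and, in the Mac comparisons, measure the spread between the sequenced mice. The paper reports that the mice sequenced were chosen for expression of the kidney injury marker Havcr1 nearest to the mean. That spread is therefore one between selected mice. The test of differences between cell types was fitted over all 63 libraries (671 loci), and its main fit had no term for the mouse. Total counts of 1106651 to 6912556 per library set a floor of 3 counts.

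Loci were named by rule: the 10 largest rises and the 10 largest falls among calls without overlap and with at least 20 CPM in the higher group, the 8 most abundant, and the listed families. Others were named after their values were seen. RefSeq sequences were found for 1734 of 2110 loci (399 of 457 tested), and host genes come from the GRCm38 annotation. On simulated counts for R-UUO against UUO-7 (447 loci), 191 of 199 loci given a log2 change of 2 were recovered, 0 in the wrong direction, and 3 of 248 unchanged loci were called as well. For the difference between cell types (598 loci) 136 of 198 were called, with 13 of 400 unchanged. That simulation used the same spread for all loci. No change smaller than a log2 of 2 was simulated, while the calls had a median size of log2 1.01 for rises and 1.11 for falls. The recovery therefore does not apply to changes of that size. Alternatives were DESeq2 1.42.0, the likelihood ratio test, library size only, RLE factors, no filter, only the compared groups, the replicate number as a block, summed or deduplicated loci, thinning to 1106651 counts, each library left out and, chosen after seeing the data, removal of a GC trend (loess span 0.75).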

Additional observations from a re-analysis of the deposited data

Results flagged for a closer look

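For 111 named loci, each with a UUO-7 and an R-UUO group of 4 libraries, 11 groups held a library whose gap to the nearest of the others, divided by the range of the group, exceeded Dixon's critical value. Chance gives about 1 in 20 groups. In 6 of the 11 the library was R-UUO replicate 5, the smallest, always as the highest value: miR-5099 at 599 CPM, miR-204-5p at 420 CPM, miR-6538 at 49.4 CPM, miR-30b-3p at 33.2 CPM, miR-126a-3p at 820 CPM and miR-92b-3p at 279 CPM. Elsewhere in R-UUO Macs, replicate 4 was lowest for miR-143-3p (8727 CPM) and replicate 2 highest for let-7f-2-3p (27.6 CPM). In UUO-7 Macs, replicate 3 was lowest for miR-101a-3p (680 CPM), and replicate 2 was lowest for miR-1306-5p (26.3 CPM) and highest for miR-98-3p (32.9 CPM). No explanation of these values was tested.

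For 6 loci the change from UUO-7 to R-UUO in Macs differed from the mean change in the other cell types by edgeR's test of the difference itself. The difference in log2 was 0.94 for miR-29a-3p, 1.52 for miR-199a-5p, 1.39 for miR-199a-3p, 1.28 for miR-199b-3p, 0.94 for miR-130a-3p and 2.30 for miR-218-5p on chromosome 11, higher in Macs each time.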

How the results depend on the processing

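The counts of 58 higher and 33 lower loci in R-UUO against UUO-7 Macs stayed within 1.5 times under DESeq2 (62 and 43), the likelihood ratio test (62 and 38), RLE factors (57 and 35), summed names (54 and 31), loci of the same counts taken once (56 and 32), thinning (47 and 42) and GC correction (44 and 23). The lower count moved to 74 with library size only and to 50 without a filter on low counts (49 higher). The higher count moved to 36 with only the UUO-7 and R-UUO libraries in the fit, of 400 loci then tested (36 lower). With single libraries left out the higher count ranged from 43 to 74 and the lower from 25 to 53, both highest without R-UUO replicate 5. The cause of these moves was not tested. With library size only, where the median of all loci fell by 0.25 on the log2 scale, the named calls that were lost were all rises (miR-30a-5p, miR-30c-2-3p, miR-181a-1-3p, miR-130a-3p, miR-200a-3p, miR-322-5p, miR-32-5p, miR-204-5p, miR-142a-3p, miR-142b, miR-99a-3p, miR-19b-3p on chromosome 14, miR-196a-5p, let-7a-1-3p and let-7e-3p), and miR-15b-5p, miR-150-5p, miR-155-5p, miR-222-3p and miR-486b-5p were called lower in addition.

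With the replicate block, 44 loci were higher and 33 lower, with 44 and 29 of the calls kept. The replicate numbers do not pair the mice: deviations of same-numbered libraries correlated at -0.128, 0.0765 and 0.0995 for replicates 2, 4 and 5. For the difference between cell types, 12 loci were called with a replicate block for each mouse, 26 without a filter (23 higher and 3 lower in Macs) and 4 with library size only, against 6. Of 76 named loci that were called, 38 kept the call under every alternative run, 38 lost it under at least 1, and none changed sign. Of 35 named loci not called, 15 were called under at least 1. At the depth of R-UUO replicate 5 a locus under 2.85 CPM rests on fewer than 3 counts.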

Other observations

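The miRNAs of the imprinted Dlk1-Dio3 region on chromosome 12 were almost silent in Macs. Of 116 loci in the window 46 had no count in the 8 libraries, 8 could be tested and none was called (median log2 fold change -0.81, against 0.04 over all tested loci). The sum over the cluster was 1772 unscaled CPM (relative to the library total alone) in UUO-7 replicate 3, against 81.7 to 249 in the other UUO-7 libraries and 53.7 to 283 in R-UUO. No explanation was tested.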
